A study of Homo sapiens with 36 samples.

Results

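Chromatin access was compared between BT549 cells that received siRNA against GATA6 and then dexamethasone (siGATA6_DEX) and cells that received control siRNA and then dexamethasone (siCtl_DEX), with 3 ATAC-seq libraries per group out of 36 in the series. ATAC-seq reads where a transposase can reach the DNA and insert adapters, and places with many insertions are called as peaks. BT549 is a triple-negative breast cancer cell line, labelled as wild type in its genotype. The siRNA against GATA6 was a pool given for 72 h, and dexamethasone (DEX), a synthetic glucocorticoid, was given at 500 nM for 2 h to both groups. Overlapping peaks of the 6 libraries on chromosomes 1 to 22 and X were joined into 174795 regions, which a library was said to hold if at least 1 bp of one of its peaks lay there. A region was called lost when it was held by 0 of 3 siGATA6_DEX and 3 of 3 siCtl_DEX libraries, and gained in the reverse case. This gave 1251 lost regions (0.716% of the 174795) and 1164 gained regions (0.666%), together 2415.

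Other libraries served for comparisons that the calls did not use. The same siRNA arms with vehicle in place of DEX (siGATA6_Veh and siCtl_Veh) had 3 libraries each. In a further experiment cells received DEX at 500 nM for 4 h with 10 µM BRM014 (DEX_BRM014) or with DMSO (DEX_DMSO), or BRM014 or DMSO without DEX, for 4 h and with 4 libraries per group. BRM014 inhibits BRG1 and BRM, the ATPases of the SWI/SNF chromatin remodelling complexes. In the last one, siRNA against both ATPases (siBRG1_siBRM) was set against control siRNA (siCtl_only), with 4 libraries each.

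GATA6 is a zinc-finger transcription factor that binds DNA at the letters GATA and is best known for its part in the formation of endoderm and heart. The glucocorticoid receptor (GR, gene NR3C1) moves to the nucleus when it binds a glucocorticoid and then occupies DNA together with cofactors, among them SWI/SNF complexes. Much of its binding in a given cell type falls on chromatin that other factors keep accessible. The comparison addresses whether regions open in the presence of an active GR need GATA6.

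The promoter windows of 4 genes show what a lost region can look like at the level of sequence, and they were chosen because they overlap a lost region and hold the letters GATAA, or TTATC on the other strand, inside it. Another window of this kind, that of LINC01687, lies on the same region as that of LINC00308 on the other strand and is not shown. The sequences are those of RefSeq on GRCh38.p14, from 250 bases before to 50 bases after a gene's start, read 5′ to 3′ on the strand of the gene, with GATAA or TTATC in capitals. The window of LOC102724082 lies at chr10:19457425-19457724 on the minus strand, that of LINC02388 at chr12:58781667-58781966 on the minus strand, that of LINC00308 at chr21:22098367-22098666 on the plus strand and that of LINC02384 at chr12:68451435-68451734 on the minus strand.
LOC102724082: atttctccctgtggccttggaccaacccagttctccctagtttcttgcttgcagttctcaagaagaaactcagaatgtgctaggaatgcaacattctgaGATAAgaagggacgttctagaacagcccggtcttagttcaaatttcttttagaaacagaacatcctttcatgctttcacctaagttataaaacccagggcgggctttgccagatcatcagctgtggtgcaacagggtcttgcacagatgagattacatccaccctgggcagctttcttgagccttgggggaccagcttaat
LINC02388: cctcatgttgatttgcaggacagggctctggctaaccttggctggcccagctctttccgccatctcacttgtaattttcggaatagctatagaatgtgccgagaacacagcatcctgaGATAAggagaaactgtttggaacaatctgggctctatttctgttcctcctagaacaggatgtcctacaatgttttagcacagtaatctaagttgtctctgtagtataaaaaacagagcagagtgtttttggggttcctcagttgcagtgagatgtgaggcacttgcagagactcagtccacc
LINC00308: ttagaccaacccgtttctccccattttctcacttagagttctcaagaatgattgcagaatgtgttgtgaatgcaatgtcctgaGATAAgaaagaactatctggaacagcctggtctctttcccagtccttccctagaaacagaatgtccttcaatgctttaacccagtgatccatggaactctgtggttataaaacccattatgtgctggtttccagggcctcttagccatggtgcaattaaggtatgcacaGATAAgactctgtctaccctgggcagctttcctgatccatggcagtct
LINC02384: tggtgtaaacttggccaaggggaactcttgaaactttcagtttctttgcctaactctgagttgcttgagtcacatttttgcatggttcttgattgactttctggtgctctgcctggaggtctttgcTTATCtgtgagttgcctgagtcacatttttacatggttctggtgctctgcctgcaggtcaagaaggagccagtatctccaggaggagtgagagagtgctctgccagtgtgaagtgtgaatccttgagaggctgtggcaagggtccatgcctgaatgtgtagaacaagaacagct

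The first 3 windows resemble one another around these letters. Over the 65 bases that run from 30 before to 30 after GATAA, 50 were identical between LOC102724082 and LINC00308, 47 between LINC02388 and LINC00308 and 43 between LOC102724082 and LINC02388. The corresponding stretch of LINC02384, read on the strand that holds GATAA, shared 22 to 25 bases with them. Fold enrichment is the authors' ratio of a peak's height to the local background in its own library. At LOC102724082 the region had folds of 7.37, 7.96 and 13.9 in the siCtl_DEX libraries and no peak in the siGATA6_DEX libraries. It also had no peak in either vehicle group, but had one in 4 of 4 DEX_DMSO, 1 of 4 DEX_BRM014 and 0 of 4 DMSO libraries. Among libraries without BRM014 it thus held peaks where cells had received DEX and GATA6 had not been knocked down. The regions at LINC02388 and LINC00308 followed the same pattern within the GATA6 experiment and held a peak in 1 of 4 DEX_DMSO libraries each. The region at LINC02384 did not depend on DEX in this way. Its folds were 12.7, 10.7 and 12.05 in siCtl_DEX, and it was held by 0 of 3 siGATA6_Veh and 3 of 3 siCtl_Veh libraries and by 4 of 4 DEX_DMSO, 4 of 4 DMSO and no BRM014 library with or without DEX.

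The number of peaks did not separate the groups. The siGATA6_DEX libraries had 120357, 121913 and 131423 peaks and the siCtl_DEX libraries 118515, 117993 and 125141. The means were 124564 ± 5991 and 120550 ± 3985 (SD, n = 3 each), a difference of 4015 peaks (two-sided exact permutation p = 0.5, where 0.1 is the smallest p that 3 against 3 can give). The share of peaks over 1000 bp from both ends of every gene was 75.4 ± 1.07% in siGATA6_DEX and 74.6 ± 0.610% in siCtl_DEX (exact permutation p = 0.5). The effect of siGATA6 on the number of peaks differed from that in vehicle by 5045 peaks (permutation p = 0.385). Replicate 3 of siGATA6_DEX had the most peaks of the 6. The lists hold no read counts, and a background level recovered from weak peaks as a measure of depth lay between 0.492 and 0.677 in the experiment. At gene ends, peaks in all 6 libraries at the mesenchymal genes VIM, ZEB1, SPARC, CAV1 and AXL and none at the hormone receptors ESR1 and PGR went with the labelled cell type, but the leukocyte markers PTPRC, CD3E and SPI1 also had a peak at a gene end in all 6. Of 5 luminal epithelial markers, CDH1 had one in all 6, KRT8 in 3 siGATA6_DEX and 2 siCtl_DEX, EPCAM in 3 and 1, ESRP1 in 1 and 2, and GRHL2 in 0 and 0. Of the endothelial markers, TEK had one in 3 siGATA6_DEX and 2 siCtl_DEX, and PECAM1 and CDH5 in 0 and 0. A gene end need not be the promoter. The promoter windows of VIM, PTPRC and KRT8 held no peak in any of the 6 libraries. ZEB1, SPARC, CAV1 and AXL each had a promoter window with a peak in all 6, and the endothelial marker TEK had one with a peak in 5. No promoter window was available for CDH1, EPCAM, GRHL2, ESRP1, CD3E, SPI1, PECAM1 and CDH5, so their promoters were not checked.

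Most regions that a library held were shared by the groups. All 6 libraries held 82435 regions, which is 47.2% of the total. Regions held by 1 or 2 of the 3 libraries made up 34.1% in siGATA6_DEX and 31.5% in siCtl_DEX, so the lists of replicates differed at many more places than the calls count. The rule for lost and gained regions is therefore a description of presence in these libraries, and no p-value belongs to it.

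**Figure D1:**
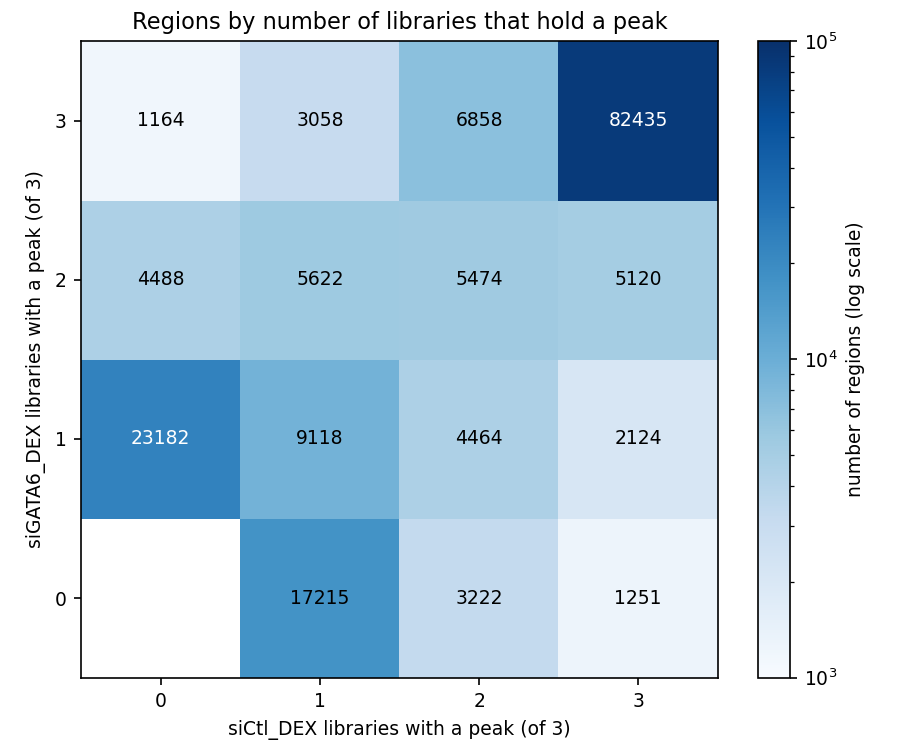
Each cell of the map gives the number of merged regions held by that many siGATA6_DEX libraries (vertical axis) and siCtl_DEX libraries (horizontal axis), on a log colour scale. The 1251 lost regions are at the lower right and the 1164 gained regions at the upper left, and 82435 regions were held by all 6 libraries.

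Lost and gained regions were alike in number but not in strength. Lost regions had a median fold of 5.48 in siCtl_DEX (5th to 95th percentile 3.44 to 11.1) and a median width of 177 bp. Gained regions had a median fold of 5.10 in siGATA6_DEX (3.38 to 8.17) and a median width of 160 bp. Regions of all 6 libraries were far stronger and wider, with medians of 12.7 in siGATA6_DEX and 12.5 in siCtl_DEX and 271 bp. When peaks were ranked by −log10 q within a library, with the strongest at the top, lost regions lay at a median of 76.7% of the list and gained regions at 81.3%. Next to the rule, the 2124 regions held by 1 of 3 siGATA6_DEX and 3 of 3 siCtl_DEX libraries had a median fold of 5.42 in siCtl_DEX, close to that of the lost regions.

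Lost and gained regions parted when strong peaks were asked for. If each of the 3 libraries that hold the region had to reach 5 on the −log10 q scale, with no peak at any q in the other 3, there were 210 gained regions (0.261% of all regions that strong in siGATA6_DEX) and 498 lost regions (0.626% of those in siCtl_DEX). At 10 there were 5 gained and 129 lost regions, and at 15 there were 0 gained and 50 lost (0.0973% of those in siCtl_DEX). The thresholds of 10 and 15 were chosen after the data were seen. The number of regions this strong was about the same on both sides, with 62230 at 10 in siGATA6_DEX and 62225 in siCtl_DEX, so that 0.00803% of the first and 0.207% of the second were called. Without any 1 of the 6 libraries, the count at 10 was 12 to 45 for gained and 151 to 212 for lost regions, since the rule then asks for fewer libraries.

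**Figure D2:**
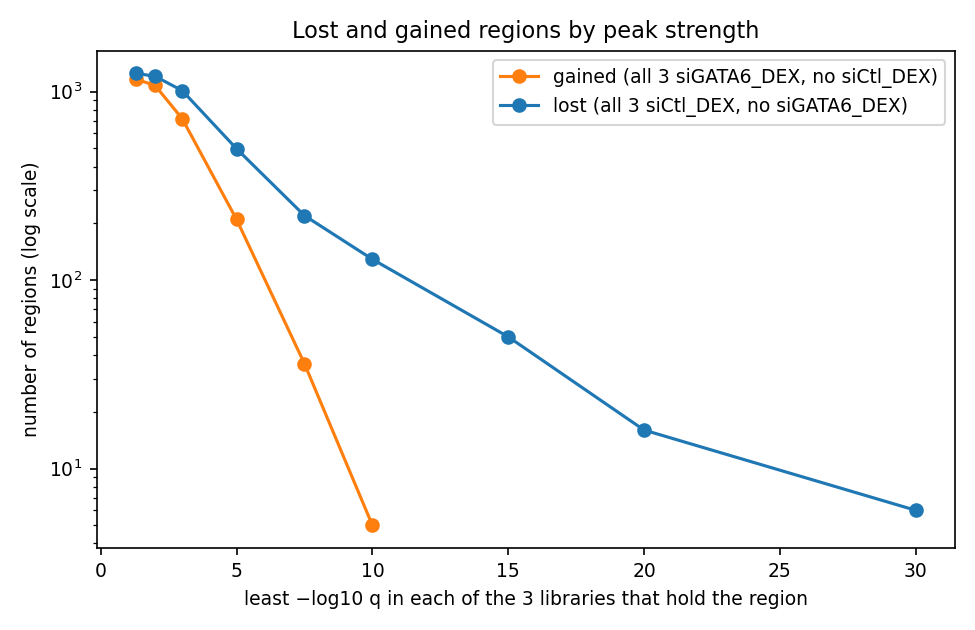
Number of gained regions (orange) and lost regions (blue), on a log axis, against the least −log10 q that each of the 3 libraries holding the region had to reach. Both sets start above 1000 regions, and at a −log10 q of 10 there were 5 gained and 129 lost regions; points at 0, which the gained set reaches from 15 on, are not drawn.

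The lost region of best mean rank lay inside CDYL, a chromodomain protein that acts as a corepressor, at chr6:4742931-4743483. Its folds were 15.1, 19.1 and 25.7 in siCtl_DEX with no peak in siGATA6_DEX. In vehicle it had folds of 4.60 and 4.63 in 2 siGATA6_Veh libraries and of 17.9, 18.4 and 21.4 in siCtl_Veh, so a weaker peak was still found in part of the knockdown libraries. A region inside CEP83, a centriole protein needed for cilia, at chr12:94326751-94327096 had folds of 17.0, 21.3 and 22.7 in siCtl_DEX. It was held by no siGATA6_Veh library and had folds of 21.2, 23.3 and 19.7 in siCtl_Veh. The region near FGFR1, a receptor of fibroblast growth factors, at chr8:38475657-38475906 lay 7.15 kb outside the gene and had folds of 22.2, 14.5 and 23.6 in siCtl_DEX. In vehicle 1 siGATA6_Veh library held it, at a fold of 4.78, against 16.8, 14.3 and 18.9 in siCtl_Veh.

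Inside LDB2, which encodes a LIM-domain-binding cofactor, chr4:16721617-16721999 had folds of 12.1, 21.0 and 21.3 in siCtl_DEX. Inside LGR4, a receptor for R-spondins in Wnt signalling, chr11:27392819-27393068 had 15.6, 16.5 and 18.2 in siCtl_DEX. All 3 siGATA6_Veh libraries kept a peak at LGR4, but with folds of 4.60, 3.97 and 4.41, against 17.2, 19.98 and 23.9 in siCtl_Veh. With HAS2, a hyaluronan synthase, as its nearest coding gene, chr8:121527400-121527670 lay 84.6 kb outside it and was held by no siGATA6 library in DEX or vehicle and by every siCtl library in both, with folds of 6.46, 7.05 and 10.1 in siCtl_DEX. The other 4 were a region inside AOPEP, one 396 kb outside LRRC7, one over 1000 kb from its nearest coding gene and one 32.5 kb outside NPIPB11. The last of these, at chr16:29348593-29348831, is named by a gene with near-identical copies, and whether its reads could also be placed elsewhere was not tested. It had folds of 15.6, 15.6 and 17.9 in siCtl_DEX, no siGATA6_Veh peak and folds of 5.71, 4.44 and 5.45 in siCtl_Veh, and a peak was found there in 4 of 4 DEX_DMSO and 0 of 4 DMSO libraries.

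**Figure D3:**
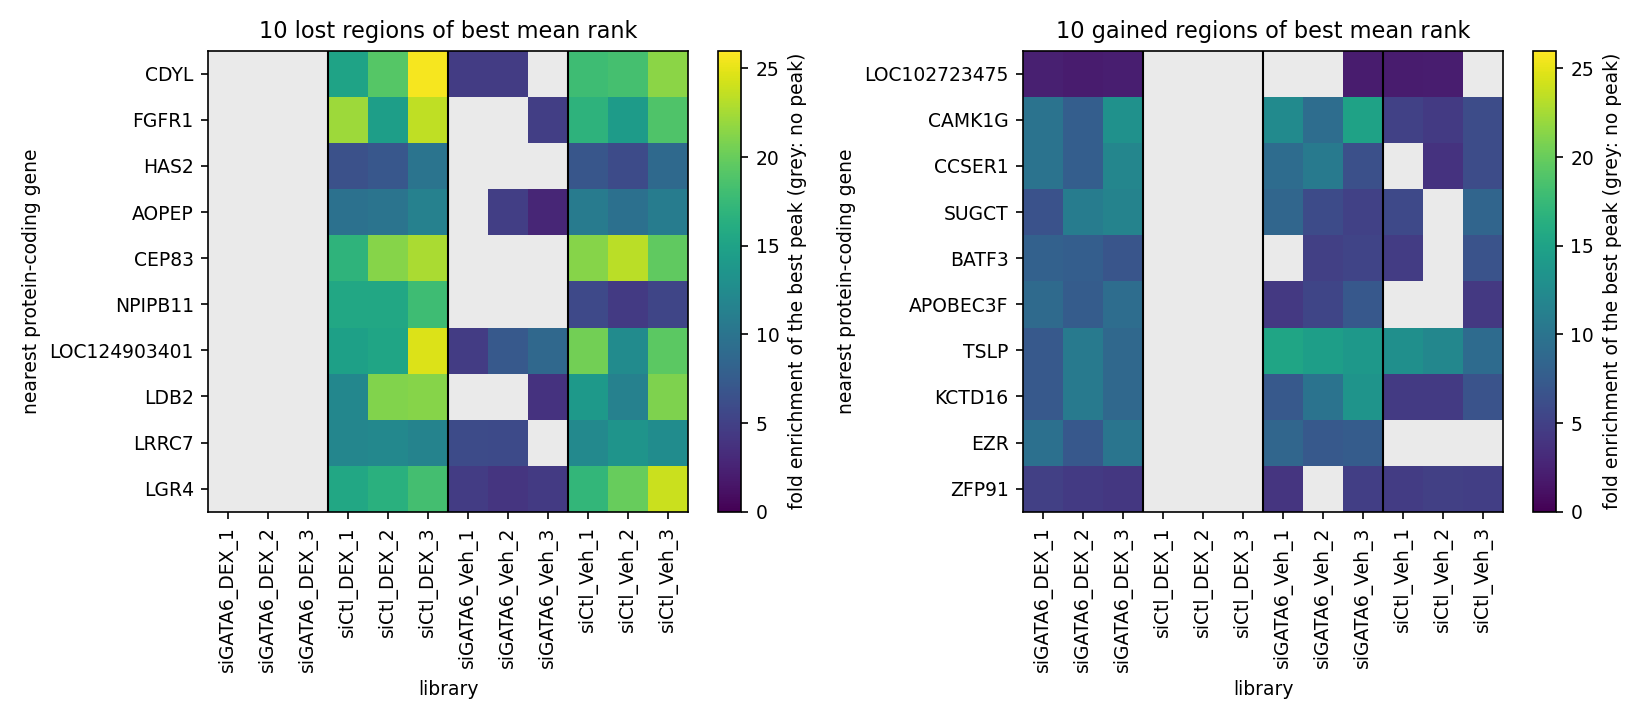
Fold enrichment of the best peak in each of the 12 libraries of the GATA6 experiment for the 10 lost regions (left) and the 10 gained regions (right) that ranked best on average, each under the name of its nearest coding gene; grey means no peak. The lost regions have peaks in all siCtl_DEX and siCtl_Veh columns, with lower folds in siCtl_Veh at NPIPB11, and weaker or no peaks in the siGATA6_Veh columns, whereas 9 of the 10 gained regions have peaks in both vehicle groups.

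The best gained regions were weaker and were often present in vehicle. Their mean ranks lay between 50.5% and 57.0% of the list, against 21.2% to 32.8% for the 10 best lost regions. The best of them, at chr21:8218965-8219064, had low folds of 2.24, 1.99 and 2.17 in siGATA6_DEX. The region chr1:209347717-209348110, whose nearest coding gene CAMK1G, a calcium-dependent kinase, lay 236 kb away, had folds of 9.85, 7.75 and 13.1 in siGATA6_DEX and none in siCtl_DEX. In vehicle the folds there were 12.5, 9.26 and 14.9 in siGATA6_Veh and 5.07, 4.44 and 6.06 in siCtl_Veh, so the peak was missing with DEX in control cells and higher with siGATA6 in vehicle. Near EZR, which encodes the membrane linker ezrin, chr6:158863612-158864096 had folds of 9.58, 7.16 and 10.1 in siGATA6_DEX and of 8.54, 7.27 and 7.56 in siGATA6_Veh. No siCtl library held it, and no library of the other experiments did. The region chr5:110951315-110951528, 119 kb from its nearest coding gene TSLP, an epithelial cytokine, had folds of 7.23, 10.7 and 8.80 in siGATA6_DEX, and in vehicle of 15.3, 14.5 and 13.9 in siGATA6_Veh and 13.0, 12.1 and 9.09 in siCtl_Veh. Next to BATF3, an AP-1 family factor, chr1:212700443-212700601 lay 0.682 kb outside the gene, with folds of 8.03, 7.75 and 6.85 in siGATA6_DEX.

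At the GATA6 gene on chromosome 18, 25 regions lay inside it or within 50 kb, of which 10 were held by all 6 libraries, 0 were lost and 1 was gained. The region next to the gene's end, chr18:22169267-22169739, 0.086 kb outside, had folds of 20.6, 18.2 and 20.4 in siGATA6_DEX and 18.6, 20.1 and 22.0 in siCtl_DEX, which overlap. The gained region chr18:22136468-22136657 lay 33.0 kb outside the gene, with folds of 5.26, 4.17 and 8.17 in siGATA6_DEX. At chr18:22206975-22207353, 4.64 kb outside, 1 siGATA6_DEX library had a peak, at a fold of 3.79, against 6.19, 7.52 and 7.97 in siCtl_DEX, and in vehicle 0 of 3 siGATA6_Veh and 3 of 3 siCtl_Veh libraries held it. Within the gene, chr18:22199018-22199354 was held by all 6 libraries with DEX and by no vehicle library, with folds of 11.4, 12.9 and 16.6 in siGATA6_DEX and 6.68, 10.2 and 15.8 in siCtl_DEX. Peak lists do not measure GATA6 transcript or protein, so the extent of the knockdown is not shown by these data.

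The other GATA genes had 1 call, which at their number of regions is near the 0.716% lost and 0.666% gained over all regions. GATA3, a luminal factor of the breast, had 1 lost region of 18 nearby, at chr10:8053753-8053884, with low folds of 3.40, 3.45 and 3.01 in siCtl_DEX and a peak in 2 of 3 libraries of each vehicle group. GATA1, GATA2, GATA4 and GATA5 had no lost and no gained region among 8, 14, 18 and 31. Around 4 known GR targets no region was called, and over all regions 0.716% were lost and 0.666% gained, so the absence of calls at this number of regions is no result about these genes. FKBP5, a co-chaperone of steroid receptors, had 36 regions, TSC22D3, which encodes GILZ, 23, PER1, a clock gene, 35, and DUSP1, a MAP kinase phosphatase, 21, with 0 lost and 0 gained at each. All 6 libraries held 18, 15, 27 and 14 of these. NR3C1, the gene of the receptor itself, had 21 regions, of which 10 were held by all 6 libraries and 0 were lost or gained, and CDH1, the epithelial cadherin, had 23 with 13 in all 6 and likewise no call.

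ZBTB16, a zinc-finger repressor strongly induced by glucocorticoids, had 1 lost and 1 gained region among 40. The lost one, chr11:114194431-114194629, had folds of 6.64, 6.13 and 6.39 in siCtl_DEX and was held by no library of either vehicle group, by 4 of 4 DEX_DMSO and by 0 of 4 DMSO libraries. The gained one, chr11:114196410-114196541, lay close by with folds of 4.61, 8.03 and 6.69 in siGATA6_DEX. It was held by 2 of 3 libraries of each vehicle group, and by 1 of 4 DEX_DMSO and 3 of 4 DMSO libraries. KRT19, a keratin of luminal epithelium, had 1 lost region of 14, at chr17:41530181-41530477, 2.02 kb outside the gene. Its folds were 9.68, 13.5 and 12.4 in siCtl_DEX, and in vehicle it had no siGATA6_Veh peak and folds of 15.4, 20.2 and 16.7 in siCtl_Veh. In the other experiments 0 of 4 DEX_BRM014 and 4 of 4 DEX_DMSO, 0 of 4 BRM014 and 4 of 4 DMSO, and 0 of 4 siBRG1_siBRM and 4 of 4 siCtl_only libraries held it. CXCL8, a neutrophil chemokine, had 2 lost regions of 18, and at the stronger one, chr4:73721573-73721876, the folds were 6.42, 8.52 and 6.58 in siCtl_DEX. Unlike at KRT19, all 3 siGATA6_Veh libraries held this region, with folds of 3.75, 3.47 and 5.95, against 6.19, 8.09 and 10.8 in siCtl_Veh.

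The vehicle libraries, which the calls did not use, showed the same direction for lost regions. Of the 1251 lost regions, 24.5 ± 3.00% held a peak in siGATA6_Veh (21.3 to 27.3%) and 60.1 ± 1.09% in siCtl_Veh (58.8 to 60.9%; SD, n = 3 each), a difference of -35.6 percentage points. The ranges do not overlap, and the exact permutation p was 0.1, the smallest that 3 against 3 can give, or 0.2 after Benjamini-Hochberg adjustment over 4 tests, so the design could not reach 0.05. Of the 1164 gained regions, 54.4 ± 7.03% held a peak in siGATA6_Veh and 38.001 ± 0.276% in siCtl_Veh (n = 3 each), a difference of 16.4 points without overlap (exact permutation p = 0.1, adjusted 0.2). Over all 174795 regions the shares were 61.2% in siGATA6_Veh and 61.7% in siCtl_Veh. Among the 129 lost regions that reached 10 on the −log10 q scale, the shares were 27.6 ± 3.82% in siGATA6_Veh and 89.9% in each siCtl_Veh library. The regions just outside the lost rule had 46.3% in siGATA6_Veh and 59.4% in siCtl_Veh, and those just outside the gained rule 64.7% and 55.4%.

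Applied to the vehicle libraries over the same regions, the rule called 1207 regions lost (0.691%) and 647 gained (0.37%) with siGATA6. Of the lost regions in DEX, 241 were also lost in vehicle, which is 19.3% of the 1251 and 19.97% of the 1207. Of the gained regions 49 were shared, 4.21% of the 1164 and 7.57% of the 647. No region was lost in DEX and gained in vehicle, while 13 were gained in DEX and lost in vehicle.

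**Figure D4:**
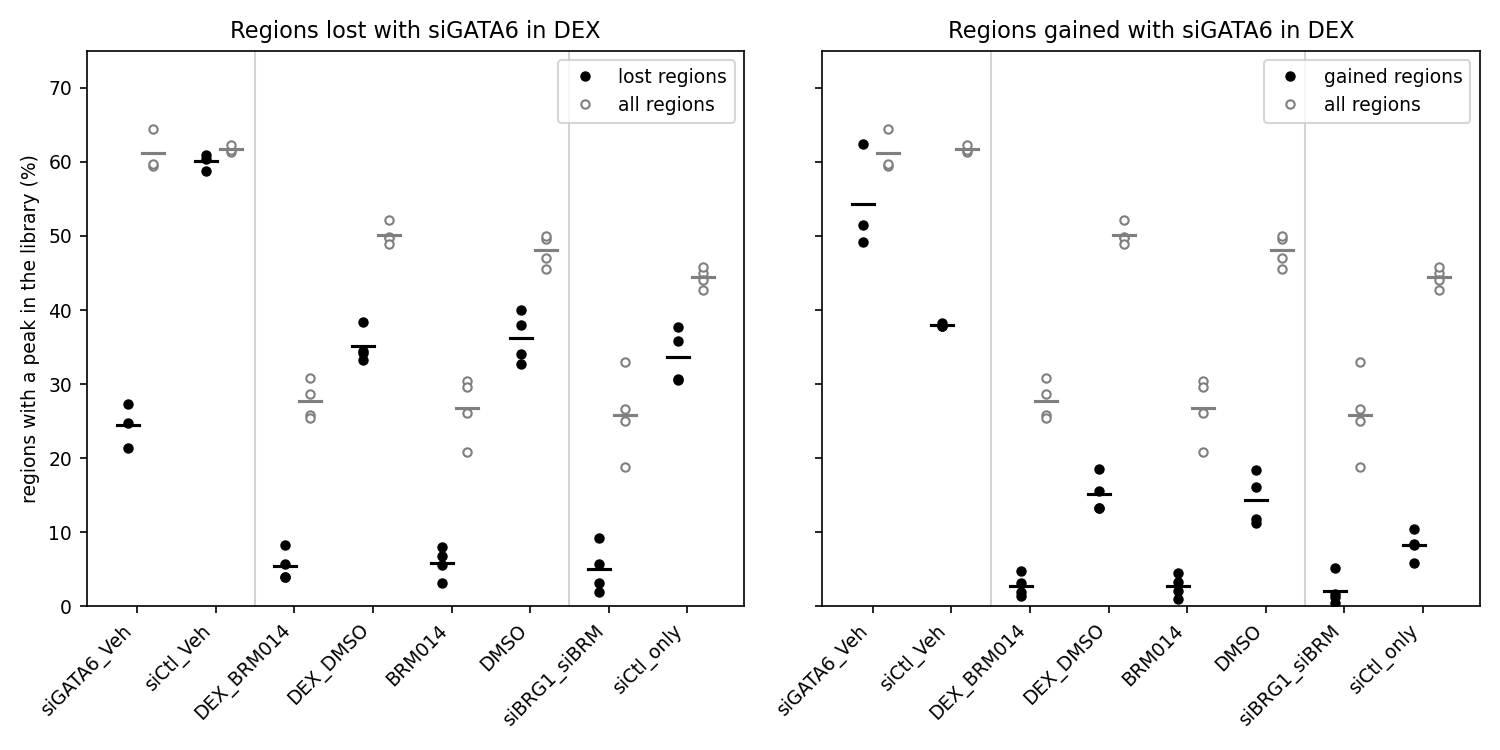
Share of the lost regions (left) and gained regions (right) that hold a peak in each library of the groups not used for the calls; filled points are libraries, open points give the same share over all 174795 regions, and short lines are group means. On average 24.5% of the lost regions had a peak in siGATA6_Veh and 60.1% in siCtl_Veh, 5.92% in BRM014 and 36.2% in DMSO.

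Lost regions differed in whether they held a peak in control cells without DEX. In siCtl_Veh 323 of them (25.8%) were held by 0 of 3 libraries, and 571 (45.6%) by 3 of 3. Among all 90930 regions that the 3 siCtl_DEX libraries held, these shares were 4.72% and 87.0%. A large share without a siCtl_Veh peak was not particular to lost regions. Of the 1164 gained regions, 427 (36.7%) were held by 0 of 3 siCtl_Veh libraries and 166 (14.3%) by 3 of 3. A division by the same vehicle libraries is a description, and what it did not use is the experiment with BRM014. There a mean of 25.5 ± 2.58% of the 323 regions had a peak in DEX_DMSO and 3.64 ± 0.853% in DMSO, and of the 571 regions 45.3 ± 3.46% in DEX_DMSO and 63.4 ± 5.06% in DMSO (SD, n = 4 each), so the first set was held more often with DEX and the other set more often without it. In DEX_BRM014 the shares were 4.33 ± 2.44% of the 323 and 5.34 ± 1.503% of the 571. Over all lost regions the shares were 35.1 ± 2.25% in DEX_DMSO and 36.2 ± 3.36% in DMSO (n = 4 each; exact permutation p = 0.714).

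Regions lost and regions gained with siGATA6 both held fewer peaks when BRG1 and BRM were inhibited or knocked down. For lost regions the share was 5.92 ± 2.06% in BRM014 and 36.2 ± 3.36% in DMSO, a difference of -30.3 points, and 5.52 ± 2.04% in DEX_BRM014 and 35.1 ± 2.25% in DEX_DMSO, a difference of -29.6. With siBRG1_siBRM it was 5.00 ± 3.22% and in siCtl_only 33.7 ± 3.61%, a difference of -28.7 (SD, n = 4 each). Each gave an exact permutation p of 0.0286, the smallest that 4 against 4 can give, and 0.0381 after adjustment over 8 tests, with every treated library below every control library. For gained regions the shares were 2.73 ± 1.48% in BRM014 and 14.4 ± 3.45% in DMSO, 2.81 ± 1.47% in DEX_BRM014 and 15.2 ± 2.51% in DEX_DMSO, and 2.15 ± 2.12% in siBRG1_siBRM and 8.27 ± 1.90% in siCtl_only, with the same exact permutation p of 0.0286 and adjusted 0.0381. Of the 129 strong lost regions, 13.6% had a peak in BRM014 and 73.8% in DMSO, and 9.88% in DEX_BRM014 and 69.4% in DEX_DMSO. All regions fell too, to 26.7% in BRM014, against 48.0% in DMSO, and to 25.9% in siBRG1_siBRM, against 44.4% in siCtl_only. The treated libraries also had fewer peaks in all, 41026 to 60995 in BRM014 and 88348 to 98220 in DMSO. The numbers were 49906 to 64198 in DEX_BRM014 and 94777 to 103956 in DEX_DMSO. They were 37184 to 66607 in siBRG1_siBRM and 81639 to 87609 in siCtl_only. The tests ask for any difference, so they do not tell a fall at these regions from the fall over all regions. Among all 90930 regions held by the 3 siCtl_DEX libraries the share was 47.9% in BRM014 and 79.8% in DMSO. In the 2124 regions just outside the lost rule it was 8.53% in BRM014 and 31.9% in DMSO. The effect of BRM014 on the share of lost regions differed between the settings with and without DEX by 0.699 points (permutation p = 0.919). The libraries of these experiments had background levels of 0.235 to 0.335, lower than in the GATA6 experiment, and shares are compared within an experiment.

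Genes near the calls were counted with a distance of 50 kb to the gene. Of 19489 protein-coding genes with any region there, 1535 (7.88%) had a gained and 1492 (7.66%) a lost region. Genes with many regions met the rule more often, since 33.3% of genes with 40 or more regions had a lost one and 2.52% of genes with 9 or fewer. The counts of the lists below therefore describe where calls lie and carry no test. A region counted at a gene can also lie inside another gene within that distance.

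Among GATA factors, cofactors and endoderm genes 5 of 25 (20%) had a lost and 3 of 25 (12%) a gained region. Over all genes with a region the shares were 7.66% and 7.88%. ZFPM2, a cofactor of GATA proteins, had 2 lost regions inside the gene. At chr8:105624280-105624456 the folds were 5.36, 6.12 and 7.83 in siCtl_DEX, with no peak in vehicle, and 4 of 4 DEX_DMSO and 1 of 4 DMSO libraries held it. LMCD1, which encodes a repressor of GATA6, also had 2, and WNT5A, a Wnt ligand, and COL4A2, a collagen of basement membranes, had 1 each. The gained regions were at GATA6, at ZFPM1, another GATA cofactor, and at TRPS1, an atypical GATA factor.

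Of 40 glucocorticoid receptor targets 4 had a lost and 4 a gained region, 10% each, near the 7.66% and 7.88% over all genes with a region. Of their 807 regions 5 were lost and 5 gained, where 0.716% and 0.666% of all regions were. The counts are thus no result about these targets. SGK1, a kinase induced by glucocorticoids, had 2 lost regions, of which chr6:134145801-134146112 had folds of 6.03, 6.12 and 9.04 in siCtl_DEX and was held by 0 of 3 siGATA6_Veh and 2 of 3 siCtl_Veh libraries. MT1X, a metallothionein, and GLUL, glutamine synthetase, had 1 lost region each besides ZBTB16. NEDD9, a docking protein of focal adhesions, had 2 gained regions, and GADD45B and SAA1 had 1 each. Steroid receptors and partners had a lost region at 4 of 13 members (30.8%) and a gained one at 2 of 13 (15.4%). Their median was 21 regions per gene, against 14 over all genes. Among the lost ones were regions near the chaperone genes HSP90AA1 and HSP90AB1, with 1 each, which lie inside the genes DYNC1H1 and SLC29A1. A further 2 lay inside NCOA2, a coactivator of nuclear receptors. The gained ones lay within 50 kb of ESR1, with 1 inside it and 1 inside SYNE1, and inside NR3C2, the mineralocorticoid receptor.

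Of the mesenchymal and matrix genes, 7 of 40 (17.5%) had a lost region and 2 of 40 (5%) a gained one, against 7.66% and 7.88% over all genes. Near ZEB1, a repressor that drives epithelial-mesenchymal transition, chr10:31554641-31554880 had folds of 8.04, 12.9 and 8.43 in siCtl_DEX. Both vehicle groups held it in 3 of 3 libraries, with folds of 5.26, 6.61 and 5.67 in siGATA6_Veh and 9.51, 22.2 and 9.69 in siCtl_Veh, while 0 of 4 DEX_DMSO and 3 of 4 DMSO libraries had a peak there. Inside FBN1, the gene of fibrillin, chr15:48592408-48592621 had folds of 4.69, 4.90 and 10.2 in siCtl_DEX, no vehicle peak, and a peak in 4 of 4 DEX_DMSO and 0 of 4 DMSO libraries. CALD1, an actin-binding protein, had 2 lost regions, and CDH11, THBS2, LOXL2 and FBN2 had 1 each. COL5A2 and HAS3 had a gained region.

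In the list of NF-kB and cytokine genes, lost regions lay at 4 of 24 members, namely CXCL8, CXCL1, LIF and TNF, and a gained one at 1 of 24, LIF. For this list and those that follow, the shares over all genes were 7.66% lost and 7.88% gained. YAP and TEAD pathway genes had 5 of 25 with a lost and 7 of 25 with a gained region. Near F3, the tissue factor gene, the lost region chr1:94501939-94502208 lay inside the gene ABCD3. It had folds of 8.04, 6.73 and 15.2 in siCtl_DEX, no vehicle peak, and a peak in 4 of 4 DEX_DMSO and 0 of 4 DMSO libraries. ASAP1, a regulator of ARF GTPases, had 2 lost and 1 gained region, and NUAK2, a kinase, 2 gained ones. AP-1 factors had 2 of 15 and 3 of 15, with lost regions near FOS and JUNB and gained ones near FOSL1, JUN and BATF3. SWI/SNF subunits had 2 of 28 with a lost region, ARID1A and ARID1B, and 6 of 28 with a gained one, among them PBRM1, BRD9 and DPF1. Cell cycle genes had 3 of 32 and 5 of 32, with 2 gained regions at CCND1, the gene of cyclin D1, and a lost one near MYC.

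Of the epithelial genes 2 of 24 had a lost region (KRT19 and PSCA) and 1 of 24 a gained one (CLDN1). Of the basal mammary genes it was 1 of 22 (EGFR) and 1 of 22 (KRT17). Over all genes the shares were 7.66% and 7.88%. The lost region near EGFR, a receptor tyrosine kinase, at chr7:55247643-55247892 had folds of 9.67, 3.95 and 9.90 in siCtl_DEX, 0 of 3 siGATA6_Veh and 3 of 3 siCtl_Veh libraries, and 0 of 4 BRM014 and 4 of 4 DMSO libraries. Markers of cell types that the culture should not hold had similar counts, with a lost region at 1 of 11 leukocyte, 2 of 11 endothelial and 0 of 10 neural markers and a gained one at 2 of 11, 2 of 11 and 1 of 10. At the endothelial marker TEK the lost region had folds of 9.37, 10.6 and 7.80 in siCtl_DEX.

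**Figure D5:**
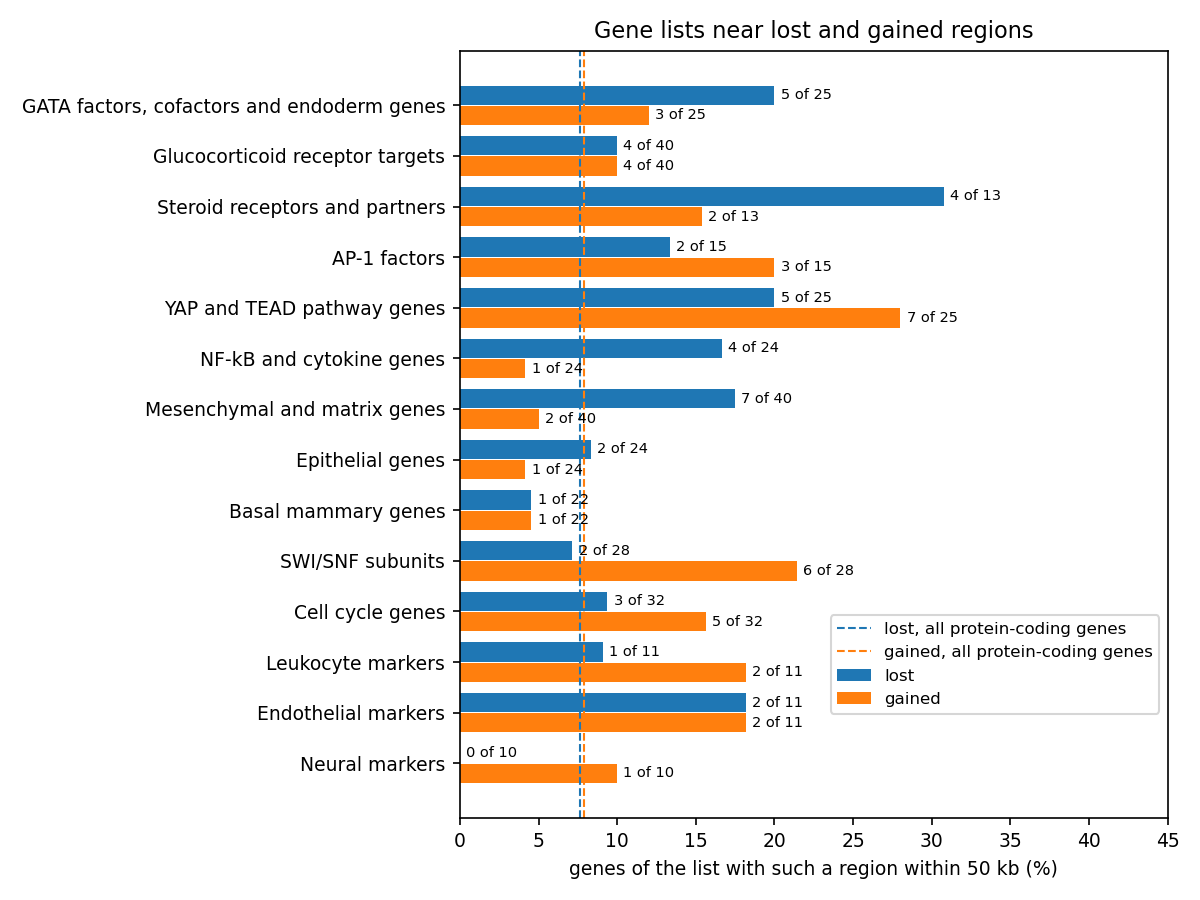
Percent of the genes of each list that have a lost region (blue) or a gained region (orange) within 50 kb, with the counts beside the bars; dashed lines give the percent over all protein-coding genes, 7.66% lost and 7.88% gained. Steroid receptors and partners reach 4 of 13 with a lost region, and marker lists of absent cell types reach 2 of 11.

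The genes with most lost regions were ELOVL6, a fatty acid elongase, SHB, an adaptor protein, RERE, a nuclear receptor coregulator, and CAST, the calpain inhibitor, with 4 each. They had 21, 72, 83 and 116 regions nearby, and over all regions 0.716% were lost. At ELOVL6 3 of the 4 lost regions lay between chr4:110163481-110163624 and chr4:110165517-110165675, and each of these was held by 3 of 3 siCtl_Veh libraries. LAMA2, a laminin chain, had 3 of 46. Of these, chr6:129183648-129183956 had folds of 12.8, 11.7 and 8.84 in siCtl_DEX, no siGATA6_Veh peak and folds of 14.6, 17.9 and 10.3 in siCtl_Veh. ITSN1, an endocytic scaffold, had 3 lost regions of 45, with no vehicle peak in either siRNA arm. Of these, chr21:33763441-33763760 was held by 4 of 4 DEX_DMSO and 0 of 4 DMSO libraries. The others, at chr21:33769373-33769650 and chr21:33844411-33844634, were held by 0 of 4 DEX_DMSO libraries. EML1, DPYSL2 and DGKB had 3 each, of 42, 47 and 49 regions. ANXA8L1, which has near-identical copies, had 3 of 9. FNDC3A, CCSER1, SPAG16, UST and CAST had 3 gained regions each, of 21, 46, 51, 62 and 116 nearby, and CAST was on both sides. Over all regions 0.666% were gained. At UST, a sulfotransferase, the 3 gained regions were held by 3 of 3 siGATA6_Veh libraries each.

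Both sets lay farther from gene ends than all regions did, though most of their members lay inside genes. The centre was over 1000 bp from both ends of every gene in 89.8% of lost and 89.3% of gained regions, against 79.2% of all regions, and the median distance to a gene end was 18.2 kb for lost, 16.7 kb for gained and 9.82 kb for all regions. Inside protein-coding genes lay 50.3% of lost, 50.7% of gained and 52.3% of all regions, and outside every gene 36.3% of lost, 38.1% of gained and 36.3% of all regions. Few clustered, as 51 of the lost and 30 of the gained regions had another of their set within 10 kb. Lost regions made up between 0.330% of the regions of chromosome 19 and 1.05% of those of chromosome 4.

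Of the 34789 promoter windows of RefSeq, 27 overlapped a lost and 16 a gained region. GATAA on either strand stood in 1 of the 16 gained windows (6.25%) and in 9 of the 27 lost windows (33.3%). In 4 of these 9 the letters lay outside the lost region, and the other 5 windows fall on 4 regions. They also stood in 12.1% of the 15971 windows on a region of all 6 libraries and 22.8% of all windows. The median GC content was 59.7% in lost, 64.0% in gained and 66.3% in windows on a region of all 6 libraries, and the part of base composition in these shares was not tested. The letters ACANNNTGT, the core of a GR element, stood in 4 of the 27 lost windows, 0 of the 16 gained and 2.498% of the windows on regions of all 6 libraries. Among these 4 were LINC00308 and LINC01687, which lie on the same region on opposite strands. LINC02388 was another, and it resembles LINC00308 around GATAA, with 47 of 65 bases identical. The 4 windows are thus not 4 separate sequences. The letters TGANTCA, the core of an AP-1 element, stood in 2 of the 27 and 3 of the 16, against 4.97%. These letters describe the windows and do not show binding, and the lost regions outside promoter windows, the great majority, were not searched because no genome sequence was used here.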

How the data were processed

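ATAC-seq peak lists of 36 BT549 libraries, 1 list per library, were used as deposited. Tools named in the submitters' processing notes are MACS2, HOMER, SAMtools and bcl2fastq, with GRCh38 (hg38) as the build; for the aligner, read shifting and peak settings, the sources used here give nothing. The deposited columns of a peak are a score, the authors' fold enrichment (a ratio to local background), −log10 p and −log10 q, whose smallest value was near 1.30. Depth per library was not recorded in the lists, and a background level was recovered from the authors' fold and −log10 p of 3000 weak peaks per library within a tolerance of 0.002.

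Groups came from sample titles, which call replicates biological; where cultures were not separate, p-values would measure technical spread. From 95 to 182 peaks per library on other chromosomes were left out. Gene positions and promoter windows came from RefSeq GRCh38.p14 tables. Library values were compared by two-sided exact permutation tests of group means with Benjamini-Hochberg adjustment within families of 4 and 8 tests, and interactions by permuting labels within the other factor (400 or 4900 arrangements). The merging of peaks and the presence rule were tested on simulated peak lists for errors in the code, which gives no error rate for the calls. Named genes were 16 always given, the nearest coding genes of the 10 best lost and 10 best gained regions by mean rank, the 10 genes with most lost and 10 with most gained regions within 50 kb, and up to 4 members of each of 14 lists per direction, or more where members tied. The genes of the promoter windows shown were chosen after their values were seen. Members, lists and rules were chosen with earlier results of these data known. Python 3.11.15, numpy 2.4.6, pandas 2.3.3, scipy 1.17.1 and matplotlib 3.10.9 were used.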

Additional observations from a re-analysis of the deposited data

How the results depend on the processing

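The counts of lost and gained regions depend on how strong a peak must be. With a −log10 q of at least 5 in all 6 libraries there were 1081 lost and 714 gained regions. With that threshold applied to the 3 libraries that hold a region, and no peak at any q in the others, there were 498 lost and 210 gained, at 10 there were 129 and 5, and at 15 there were 50 and 0. With each list limited to its 117993 best peaks there were 1411 lost and 958 gained, with at least 50% of a region covered 1571 and 1411, and with regions merged over 12 libraries 1221 and 1157. Leaving out 1 library asks for fewer libraries and gave 1704 to 2415 lost and 1885 to 3027 gained regions, and 151 to 212 lost and 12 to 45 gained at a −log10 q of at least 10.

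The difference in peaks per library was 585 to 6310 without 1 library, and that in the distal share 0.135 to 1.19 points. Without 1 library the vehicle difference was -37.0 to -34.0 points for lost and 12.3 to 18.9 points for gained regions. Without 1 library the differences for lost regions were -2.26 to 0.160 (DEX_DMSO minus DMSO), -31.4 to -29.0 (BRM014 minus DMSO), -30.5 to -28.5 (DEX_BRM014 minus DEX_DMSO) and -30.1 to -27.4 points (siBRG1_siBRM minus siCtl_only), and for gained regions -0.351 to 2.13, -12.7 to -10.3, -13.0 to -11.2 and -7.15 to -5.38 points. With peaks under 5 on the −log10 q scale left out, the small difference of gained regions between DEX_DMSO and DMSO turned to -0.280 points. The cause was not tested.

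In the GATA6 experiment, deviations of same-numbered siGATA6_DEX and siCtl_DEX libraries correlated at 0.0217 to 0.0765 and those of different-numbered ones at -0.0622 to 0.0130. Between these 2 groups each library correlated best with its own number, a hint from the data. The same-numbered correlations stayed under the 0.1 asked for, so the numbers were not taken as pairs. The same held between siGATA6_Veh and siCtl_Veh, with 0.0290, 0.0318 and 0.0987 for the libraries numbered 1, 2 and 3, also under 0.1. Across the other pairs with a vehicle group the picture was mixed. The libraries numbered 3 of siCtl_DEX and siCtl_Veh correlated at 0.116, while siGATA6_DEX 2 correlated at 0.0308 with siGATA6_Veh 1 and 0.0253 with siGATA6_Veh 2. With replicate number as a block, the vehicle differences of -35.6 points for lost and 16.4 points for gained regions had an exact permutation p of 0.25, the smallest that 3 blocks can give. The other experiments were not checked in this way. There, with replicate number as a block the exact permutation p of the SWI/SNF differences, -30.3, -29.6 and -28.7 points for lost and -11.7, -12.4 and -6.12 points for gained regions, was 0.125, or 0.167 adjusted, the smallest that 4 blocks can give being 0.125.

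Of the listed genes, 42 had a lost and 40 a gained region within 50 kb, 26 and 23 within 10 kb, 65 and 58 within 100 kb, and 45 and 33 with an equal number of peaks. The planned search for motifs over whole regions was not run. Depth limits what a missing peak means, since a weak peak can fall under the threshold in one library and not in another.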
